A study of Mus musculus with 32 samples.

Results

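Phase II conjugation enzymes attach glucuronate, glutathione or sulfate to drugs, steroids, bilirubin, bile acids and products of lipid oxidation, which makes these compounds easier to excrete. The genes described here were those whose symbol in the deposited table named a UDP-glucuronosyltransferase (UGT, families 1 to 3), a cytosolic or mitochondrial glutathione transferase (GST) or a sulfotransferase (SULT), with pseudogene symbols left out. The rule found 46 of the 21880 genes in the table, 15 UGTs, 21 GSTs and 10 SULTs. RNA had been sequenced from livers of 4 genotypes (WT, TKO, DKO and L-*Dnm1l*–KO) at 2M and 6M, with 4 libraries in each of 8 groups and 32 in all. L-*Dnm1l*–KO mice lack DRP1, the dynamin-related protein that divides mitochondria. DKO mice lack the mitofusins MFN1 and MFN2, which fuse them, and TKO mice lack all 3 proteins. The floxed lines, of mixed C57BL/6/129 background, had been crossed with C57BL/6J mice carrying albumin-Cre, so deletion was directed to cells that express albumin, and the other cells of the liver kept the genes. The sex of the sequenced mice is not given in the sources used here.

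UGTs sit in the membrane of the endoplasmic reticulum and use UDP-glucuronate, most GSTs are cytosolic dimers that use glutathione, and cytosolic SULTs use the sulfate donor PAPS. Several of these enzymes are abundant in hepatocytes, and others are known mainly from other tissues. In mice the genes lie in clusters of related copies, and at the *Ugt1* locus alternative first exons are joined to the same later exons.

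The value analysed for each gene was the authors' deposited mean normalized count, 1 number taken over all 32 libraries. It has no replicate error and no n, and it cannot be assigned to a genotype or an age. Fold changes and *P* values between genotypes are the authors' own comparisons and were not used here, so no knockout was compared with WT. In whole liver, a lower share of cells of a type and less RNA per cell cannot be told apart in such a mean. The deposited means sum to 900450 over the table. That sum is the average normalized total of a library, and the depth of single libraries is unknown. The library kit keeps the strand of the RNA, and which strand setting was used in counting is not given in the sources used here. With the opposite setting, a gene's count would hold reads antisense to it. Of the 100 highest genes of the table, 95 have an exon overlapping a gene on the opposite strand, 92 of them a coding gene, whereas 33.1% of all genes have such an overlap. The 9895 coding genes with none held 9.65% of the table's sum. Which strand the counts hold was not tested, so each level given here is a level of the deposited count, which may not be that of the gene's mRNA.

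Of the 46 genes, 35 (76.1%) reached a mean normalized count of 1. A count of 10 was reached by 17 (37.0%) and a count of 100 by *Gsta3* alone (2.17%). Over all 21880 genes these shares were 56.8%, 20.2% and 4.63%. The median of the mean normalized count was 5.16 for the conjugation enzymes and 1.52 for all genes. The 9895 coding genes with no opposite-strand overlap had a median of 1.59, and 13.5% of them reached 10. The conjugation enzymes together summed to 913, which was 0.101% of the table. By family, GSTs held 50.3% of that sum, UGTs 34.2% and SULTs 15.5%, and with each count divided by exon length the shares were 51.6%, 32.8% and 15.6%. Per kb of exon, the median level was 2.78 for the 46 genes and 0.547 for all genes.

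**Figure D1:**
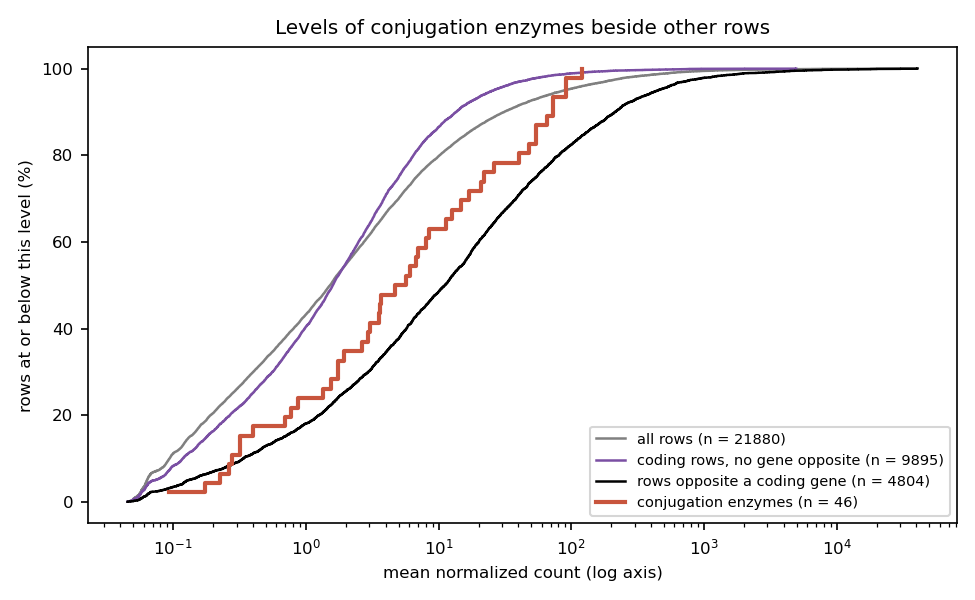
Cumulative share of genes (vertical axis, %) at or below each mean normalized count (horizontal axis, log scale) for the 46 conjugation enzymes, all 21880 genes, 9895 coding genes with no gene opposite and 4804 genes with an exon opposite a coding gene. At the median the conjugation enzymes (5.16) lie between all genes (1.52) and the genes opposite a coding gene (11.2), and the enzymes end at 119.6, where the other 3 curves go on to higher counts.

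Levels of different genes were compared per kb of exon, since longer transcripts yield more reads. The length used was that of all annotated exons of a gene merged, which can exceed that of its main transcript. The order per kb therefore also depends on which transcripts are annotated. Among the 46 genes, the deposited count of *Gstm1*, a mu class GST gene, was the highest per kb, 62.2 (rank 872 of the table), from a mean normalized count of 91.6. *Gstp1*, the pi class enzyme known to be more abundant in male than in female mouse liver, followed with 47.0 per kb. The next were *Ugt2b36* with 35.6 and *Ugt2b5* with 29.0 per kb, 2 members of the UGT2B group that glucuronidates steroids and many drugs. *Gsta3*, the alpha class enzyme that conjugates activated aflatoxin in mice, had the largest mean normalized count of all 46 genes, 119.6, and lay in place 5 per kb with 27.5, its annotated exons covering 4344 bp. All 5 of these genes lay above 93% of the genes in the table per kb.

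Among the GSTs, *Gstz1* had 17.8 per kb. It encodes maleylacetoacetate isomerase of tyrosine breakdown, and its mean normalized count was 90.6. The theta class genes *Gstt1* and *Gstt2*, whose enzymes act on small halogenated compounds, had 7.46 and 4.11 per kb, and *Gstt3* had 0.794. *Gsta4*, whose enzyme removes the lipid peroxidation product 4-hydroxynonenal, lay at 4.83 per kb. *Gstk1*, which encodes the GST of mitochondria and peroxisomes, lay at 4.77 per kb, and *Gsto1*, which encodes a dehydroascorbate reductase, at 3.33. The mu class spanned 2 orders of magnitude: below *Gstm1* came *Gstm3* with 6.42 per kb, *Gstm6* with 4.07, *Gstm4* with 3.32, *Gstm2* with 2.16, *Gstm7* with 1.85 and *Gstm5* with 0.543. The pi class was as uneven, with *Gstp3* at 0.846 and *Gstp2* at 0.286 per kb. Within the alpha class, *Gsta2* lay at 2.23 per kb, and *Gsta1* and *Gsta5* at 0.276 and 0.0868, below the median gene of the table (0.547).

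Per kb of exon, the 5 highest UGTs were all of the UGT2 family. Below *Ugt2b36* and *Ugt2b5* came *Ugt2b1* with 18.6 per kb, *Ugt2b34* 12.5 and *Ugt2a3* 9.90, and *Ugt2b35* had 4.41. The remaining pair, *Ugt2b38* and *Ugt2b37*, had 0.460 and 0.0920 per kb, so that the 7 *Ugt2b* genes fell into 5 with a mean normalized count above 10 and 2 with one below 1. *Ugt3a2*, of a family that uses sugars other than glucuronate, had 7.10 per kb and *Ugt3a1* had 1.39. *Ugt1a1*, the enzyme that conjugates bilirubin, had 5.70 per kb and a mean normalized count of 12.7. The other *Ugt1a* genes lay between 0.314 per kb for *Ugt1a6a* and 1.62 for *Ugt1a9*.

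Of the SULTs, *Sult1a1*, the phenol sulfotransferase, had 26.8 per kb. *Sult2a8*, a bile acid sulfotransferase of mouse liver, followed with 19.9 and *Sult1d1*, which sulfates catecholamines, with 10.7. *Sult1b1*, which acts on thyroid hormone, had 1.68 per kb. The other 6 lay between 0.0696 and 0.820 per kb. These were *Sult6b1* (0.820), *Sult5a1* (0.350), *Sult2a7* (0.249), *Sult1c2* (0.217), the estrogen sulfotransferase gene *Sult1e1* (0.181) and the cholesterol sulfotransferase gene *Sult2b1*, the lowest of all 46. The 3 leading SULT genes held a mean normalized count above 10 each, and 4 of the 10 were under 1.

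**Figure D2:**
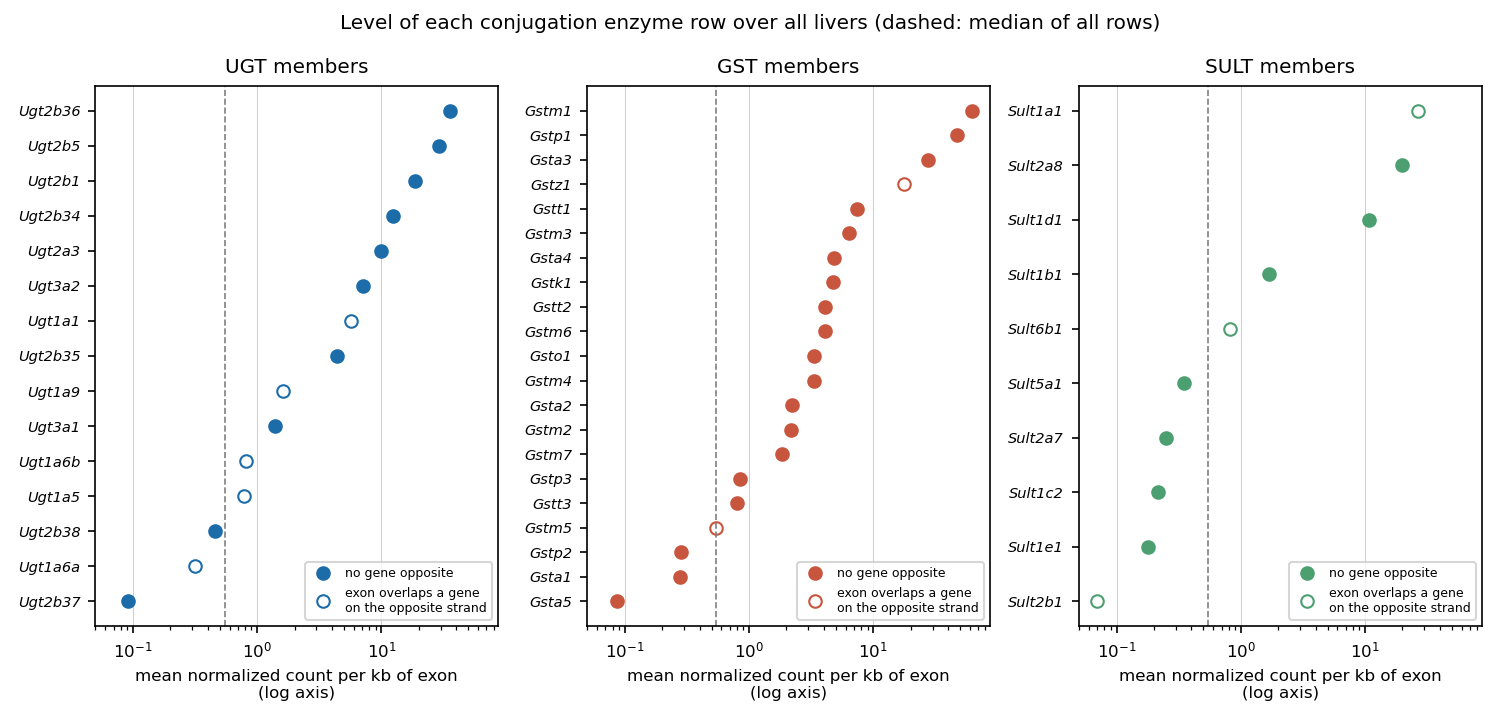
Mean normalized count per kb of exon (horizontal axis, log scale) of each UGT, GST and SULT gene, 1 point per gene, over all livers, with the median of all genes as a dashed line. Open circles mark the 10 genes with an exon that overlaps a gene on the opposite strand. *Gstm1* lies highest at 62.2 and *Sult2b1* lowest at 0.0696.

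The 46 genes lie on 12 chromosomes, and 39 of them on 7 (GENCODE M21 on GRCm38). Chromosome 5 carries 11, *Ugt2* and *Sult1* genes side by side, from *Ugt2b34* (chr5:86889767-86906937) to *Sult1e1* (chr5:87575969-87591594). Of these 11, 7 had a mean normalized count of at least 10, and their sum of 297 was the largest of any chromosome. Chromosome 3 carries the 7 mu class genes, from *Gstm5* (chr3:107895821-107898686) to *Gstm4* (chr3:108040408-108044894), with a sum of 121. *Gstm1* (chr3:108012255-108017973), next to last in that row, supplied 91.6 of it. Neighbours in a cluster therefore differed widely: *Ugt2b5* (chr5:87124960-87140318) stood at 29.0 per kb and *Ugt2b37* (chr5:87240493-87254804) at 0.0920.

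The *Ugt1* locus was examined separately because its genes share exons. The annotation names 9 *Ugt1a* genes there, of which 5 were among the 46. *Ugt1a9*, *Ugt1a6b*, *Ugt1a6a*, *Ugt1a5* and *Ugt1a1* start in this order along the plus strand of chromosome 1, and each joins its own first coding exon to the same later exons. The coding sequence across that junction is given for the 5 genes to show where they become identical, 36 bases from each side, with the bases of the common exon (chr1:88215044-88215079) in capitals.
Ugt1a9: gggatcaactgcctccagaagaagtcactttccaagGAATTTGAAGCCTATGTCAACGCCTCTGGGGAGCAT
Ugt1a6b: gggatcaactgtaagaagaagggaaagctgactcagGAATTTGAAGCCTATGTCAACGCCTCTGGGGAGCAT
Ugt1a6a: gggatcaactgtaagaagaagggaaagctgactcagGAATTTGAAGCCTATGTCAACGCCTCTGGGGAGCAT
Ugt1a5: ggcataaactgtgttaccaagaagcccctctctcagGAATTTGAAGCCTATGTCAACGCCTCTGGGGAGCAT
Ugt1a1: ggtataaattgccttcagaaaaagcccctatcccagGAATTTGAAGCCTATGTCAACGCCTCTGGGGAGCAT
The first-exon parts end at chr1:88071678, chr1:88107799, chr1:88139331, chr1:88166903 and chr1:88212871. They differ between the genes, except that *Ugt1a6a* and *Ugt1a6b* are the same over the stretch shown.

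Because of this layout, only 913 of the 2224 exon bases of *Ugt1a1* belong to no other gene on its strand, and 879 of the 2190 of *Ugt1a9*. Reads of 75 bases that fall in the common exons cannot be assigned to 1 of these genes, and HTSeq leaves such reads out in its default mode. The mode used is not given in the sources used here, and its part in the low *Ugt1a* values was not tested. Values per kb of unshared exon divide the whole count by the unshared length, and are too high if reads in the common exons were counted. Per kb of unshared exon, *Ugt1a1* stood at 13.9, place 10 of the 46, against place 16 per kb of all exons. By the same measure *Ugt1a9* stood at 4.04, *Ugt1a6b* at 2.05, *Ugt1a5* at 1.95 and *Ugt1a6a* at 0.632. *Ugt1a1* was thus the highest of the 5 with either length.

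A gene on the minus strand, *Gm20528* (ENSMUSG00000092220, annotated as a processed transcript), lies opposite the same exons. Of its 1062 exon bases, 528 lie opposite the first exon of *Ugt1a1*, 394 opposite the last common exon and 140 opposite the first exon of a *Ugt1a* gene not analysed here, so that all 1062 lie opposite an exon. Its mean normalized count was 12235. It held rank 10 of the 21880 genes and 1.36% of the table's sum. Per kb of exon it stood at 11521, against 5.70 for *Ugt1a1* and 2117 for *Alb*. In counts, the *Gm20528* value was 576 times the sum of the 5 *Ugt1a* values and 13.4 times that of all 46 conjugation enzymes. The stretch chr1:88212437-88212496 is printed in both directions, to show that the transcripts of these genes are reverse complements of each other here.
Ugt1a1, plus strand: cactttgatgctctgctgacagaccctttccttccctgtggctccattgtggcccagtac
Gm20528, minus strand: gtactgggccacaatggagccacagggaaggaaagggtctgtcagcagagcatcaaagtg
Reads of the 2 genes over these bases can be told apart only by the strand setting in counting.

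**Figure D3:**
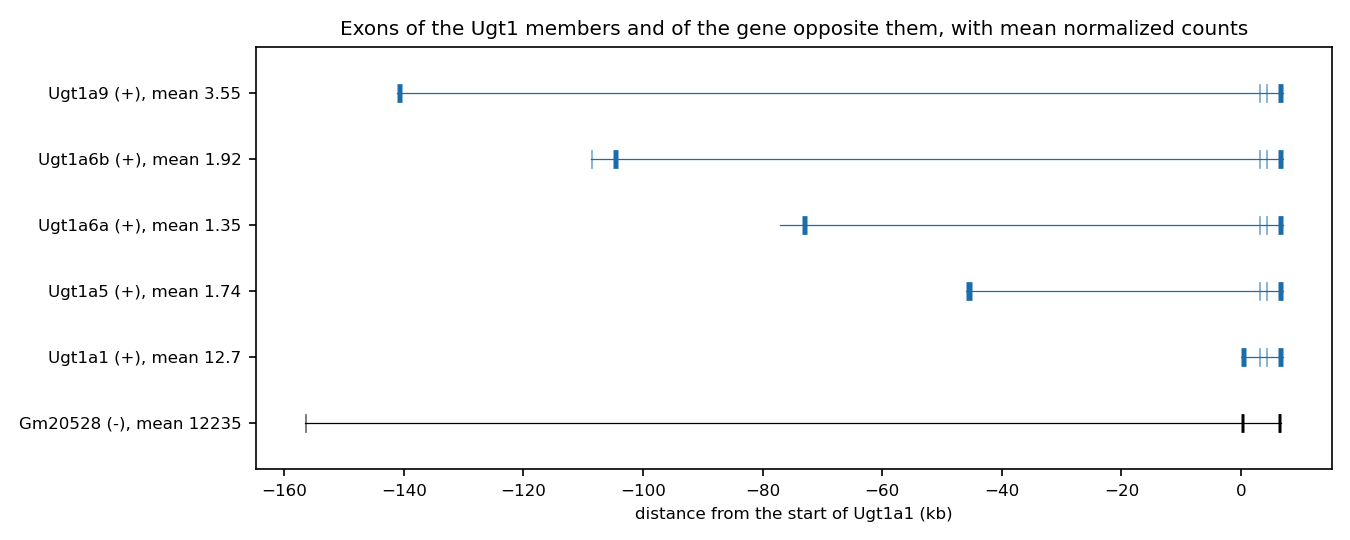
Exons (blocks) of the 5 *Ugt1a* genes on the plus strand and of *Gm20528* on the minus strand, by distance from the start of *Ugt1a1* in kb, with the mean normalized count of each beside its name. The first exons are spread over about the width of the locus, the later exons coincide at the right, and *Gm20528*, with 12235, has blocks at the first exon of *Ugt1a1* and at the last common exon.

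Besides the 5 *Ugt1a* genes, 5 other conjugation enzymes have an exon that overlaps a gene on the opposite strand, 10 of 46 in all (21.7%, against 33.1% of all genes). For 9 of the 10 an opposite gene has a value, and in each of these 9 the highest opposite gene stood above the enzyme per kb. Of these 9, 5 share *Gm20528*, and for *Gstz1* and *Sult2b1* only 1 of 2 opposite genes was higher. Over the whole table, 51.4% of the 6674 genes with such a value had a higher opposite gene. *Sult1a1* (chr7:126672865-126676432) overlaps *Sgf29* by 61 bp, and *Sgf29*, a chromatin reader of the SAGA complex, stood at 232 per kb against 26.8. *Gstm5* overlaps the antisense gene *4933431E20Rik* by 178 bp, with 2.19 per kb for the latter against 0.543. *Gstz1* (chr12:87147165-87164723) overlaps *Pomt2*, a protein O-mannosyltransferase gene, by 465 bp and *Gm6566* by 156 bp. Its 17.8 per kb lay between the 7.74 of *Pomt2* and the 24.6 of *Gm6566*. *Sult2b1* overlaps *Lmtk3* and *Gm31597*, all of them below 0.16 per kb. For *Sult6b1* the opposite gene, *Gm26637*, has no value.

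**Figure D4:**
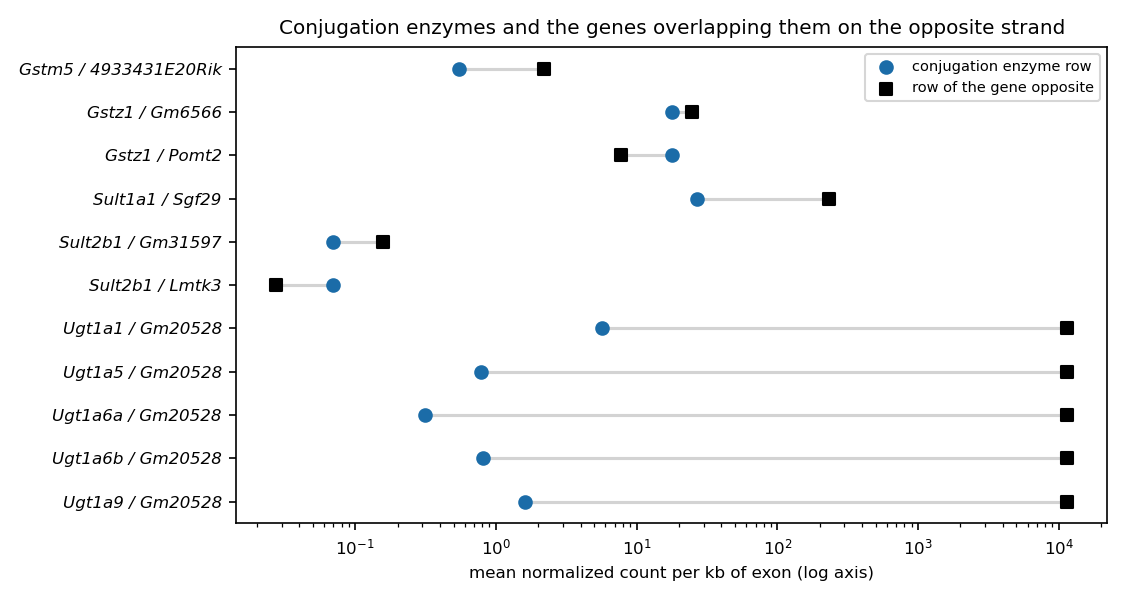
Mean normalized count per kb of exon (horizontal axis, log scale) of each conjugation enzyme (circles) and of the gene that overlaps it on the opposite strand (squares), 1 line per pair. The 5 pairs with *Gm20528* are the widest, from 0.314 to 5.70 on one side and 11521 on the other, and in 2 of the 11 pairs, with *Pomt2* and *Lmtk3*, the enzyme is the higher.

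Across the table, genes with an exon opposite a coding gene numbered 4804, had a median mean normalized count of 11.2 and held 83.8% of the sum. Of the 46 enzymes, 3 are among them (*Gstz1*, *Sult1a1* and *Sult2b1*). The 36 enzymes with no overlap at all had a median of 6.42, above the 1.59 of the 9895 coding genes of that kind. The 6 hepatocyte markers without an opposite gene lay between 54.8 per kb for *Serpina1a* and 2117 per kb for *Alb*, with *Apoa1* at 602 and *Fgb* at 173 per kb. All 7 hepatocyte markers with a value had a mean normalized count above 10, and these counts summed to 7952. Markers of other cells summed to 3.15 for 5 cholangiocyte genes (*Krt19* 0.0850), 15.3 for 5 stellate cell genes, 11.7 for 4 endothelial genes and 129 for 5 macrophage genes. *Csf1r*, with an exon opposite another gene, gave 121 of the macrophage sum, and the defining Kupffer cell gene *Clec4f* had a count of 3.82. *Xist*, with 2061 bp of exon opposite another gene, stood at 0.373 per kb and the Y-linked *Ddx3y*, with none, at 1.41 per kb.

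Close copies are a further property of these families. Coding sequences were aligned for the 360 pairs within a family, and 9 pairs were identical at 90% or more of the aligned columns. The closest was *Gsta2* with *Gsta5* (98.5%, 10 differences over 669 columns), then *Ugt1a6a* with *Ugt1a6b* (98.4%), *Gstp1* with *Gstp2* (98.1%), *Gsta1* with *Gsta2* (97.5%) and *Ugt2b38* with *Ugt2b5* (97.0%). Per kb, *Gstp1* stood at 47.0 against 0.286 for *Gstp2*, and *Ugt2b5* at 29.0 against 0.460 for *Ugt2b38*. The gap was smaller between *Gsta2* (2.23) and both *Gsta5* (0.0868) and *Gsta1* (0.276), and between *Ugt1a6b* (0.807) and *Ugt1a6a* (0.314). Of the pairs named here, the 2 with the widest gaps are shown, with the differing bases in capitals. Each is shown over its stretch of 60 coding bases with the most differences. This stretch covers bases 1 to 60 of the *Gstp* and bases 1467 to 1526 of the *Ugt2b* coding sequences.
Gstp1: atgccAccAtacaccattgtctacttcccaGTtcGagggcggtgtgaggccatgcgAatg
Gstp2: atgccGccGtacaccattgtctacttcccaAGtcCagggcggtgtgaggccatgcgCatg
Ugt2b5: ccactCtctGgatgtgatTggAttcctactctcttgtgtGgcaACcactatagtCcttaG
Ugt2b38: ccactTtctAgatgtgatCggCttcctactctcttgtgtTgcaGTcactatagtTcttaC
The first pair differs at 6 of these 60 bases, out of 12 differences in the whole coding sequence, and the second at 9. No other stretch of this length held more differences in either pair.

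How often a read could come from more than 1 gene was estimated from the 75-base windows of a gene's transcripts. The share that also occurs, in the same direction, in transcripts of another gene was counted. Overlap with a gene on the opposite strand, as in *Gstz1* and *Sult1a1*, therefore does not enter this share. Of the 46 genes, 21 shared no window and 15 shared more than 10%. *Gsta1* shared 84.7% of its windows, the *Ugt1a* genes between 51.2% and 74.8%, and *Gstp2* 50.1%. *Gstp1* shared 29.2%, all of them with *Gstp2*, and *Ugt2b5* shared 30.4%, most of them with *Ugt2b38*. How reads from such windows were counted is not given in the sources used here, so the values of these genes are uncertain by an amount that was not measured. The leading genes *Ugt2b36*, *Gsta3*, *Gstz1* and *Ugt2b1* shared none, *Sult2a8* 0.210%, *Sult1a1* 3.37% and *Gstm1* 11.7%.

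**Figure D5:**
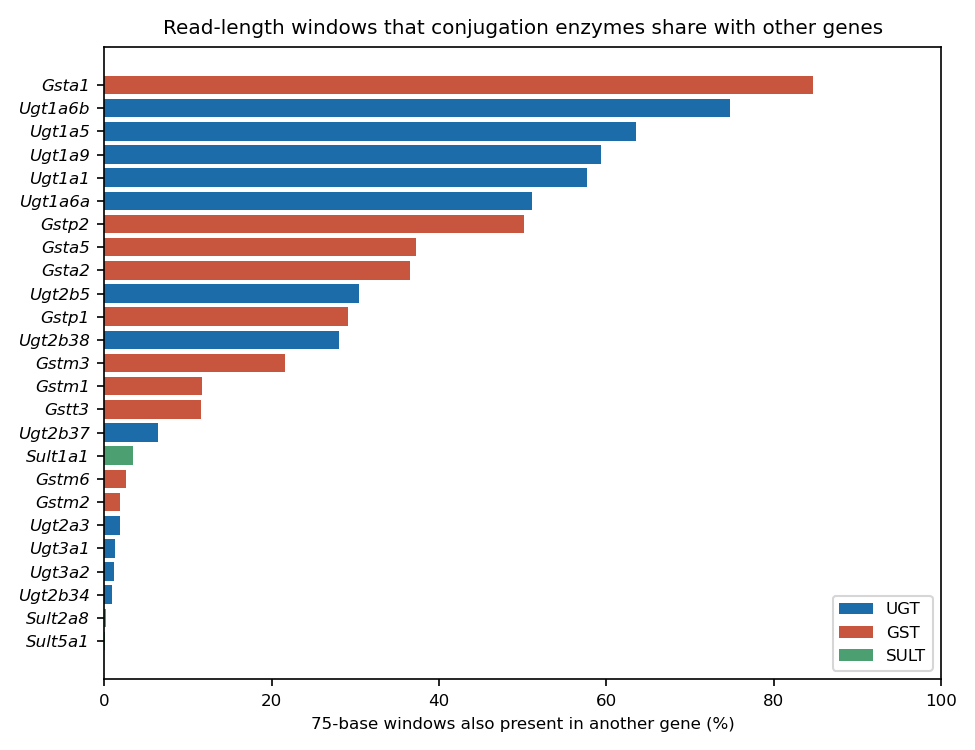
Share of each gene's 75-base transcript windows that also occur, in the same direction, in a transcript of another gene (horizontal axis, %). The 25 conjugation enzymes with any such window are shown, coloured by family. Bars reach 84.7% for *Gsta1* and 74.8% for *Ugt1a6b*, and SULT genes stay at or below 3.37%.

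Of 24 listed genes for co-substrates, other conjugation steps and deconjugation, 22 had a value, 17 of them a mean normalized count of at least 1 and 13 of at least 10, with a median of 16.5. For UDP-glucuronate, *Ugp2* stood at 12.7 per kb and *Ugdh* at 2.06. For glutathione, the catalytic and modifier subunits of glutamate-cysteine ligase, *Gclc* and *Gclm*, stood at 10.4 and 4.28, *Gss* at 10.6 and the reductase gene *Gsr* at 2.11. *Papss2*, the liver form of the PAPS synthase genes, stood at 4.91 per kb and *Papss1* at 0.301. *Mgst1*, the microsomal GST outside the families described here, had 105 per kb, above *Gstm1*. *Inmt* stood at 25.7 and *Ephx1* at 14.7 per kb, while *Nqo1*, the quinone reductase that NRF2 induces, stood at 0.472. All 11 listed regulators of conjugation enzyme genes had a mean normalized count above 1, and 4 had one above 10. Among the 11, *Hnf4a* stood at 14.1 per kb, *Rxra* at 5.81, the pregnane X receptor gene *Nr1i2* at 3.12, *Ppara* at 2.52, *Nfe2l2* at 1.85 and *Ahr* at 0.724. *Nr1i3*, the constitutive androstane receptor gene, stood at 66.7 and overlaps a gene on the opposite strand by 3304 bp. Such an overlap also holds for *Ugp2*, *Gclm*, *Gss* and *Ahr* among the genes given here, and its part in these levels was not tested.

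Promoter windows of 300 bases, 250 before the start and 50 after it, were found in RefSeq (GRCm38.p6) for 40 of the 46 genes, 50 windows in all. Short motifs were searched on both strands. The core of the antioxidant response element, TGACNNNGC, occurred in 3 of the 50 (6%), against 12.4% of all 32851 windows. These were windows of *Gsta3*, *Gstm5* and *Gstm7*, shown with 12 bases on each side and the match in capitals.
Gsta3, 121 bases before the start, window chr1:21240335-21240634: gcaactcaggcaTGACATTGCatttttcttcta
Gstm5, 42 bases before the start, window chr3:107895604-107895903: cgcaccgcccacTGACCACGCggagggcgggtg
Gstm7, 129 bases before the start, window chr3:107931565-107931864: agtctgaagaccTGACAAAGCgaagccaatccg
The AHR core GCGTG occurred in 12 windows (24%, against 32.4% of all) and TATAAA in 8 (16%, against 13.6%). In *Gstm5* the AHR core, on the other strand, lies inside the TGACNNNGC match. Neither spelling of the nuclear receptor direct repeat searched occurred in the 50 windows, and each was in under 0.5% of all windows. Such matches describe the letters of these windows and no binding. Of the 3 genes with an antioxidant response element core, *Gsta3* stood at 27.5 per kb, *Gstm7* at 1.85 and *Gstm5* at 0.543.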

How the data were processed

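Poly(A) RNA of 32 mouse livers was made into strand-specific libraries and sequenced as single-end reads of 75 bases. The authors mapped the reads with HISAT2 2.1.0.13 to GRCm38, counted them on genes with HTSeq and fitted DESeq2. The deposited table holds, as signal, the mean normalized count of each gene, library counts scaled by size factors and averaged, repeated identically in 6 blocks. The other 30 columns hold fold changes, standard errors, test statistics and *P* values of the authors' own comparisons and were not used, so no statistical test was run. Members and lists were chosen with earlier results of these data known.

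Exons were merged per gene in GENCODE M21, in which 21833 genes were found and 47 were not. Values were divided by merged exon length in kb. Coding sequences (longest per gene) were aligned globally with Biopython 1.88, with a match of 2, a mismatch of -1 and gaps of -5 and -1. Windows and alignments were tested on simulated data. Python 3.11.15 and pandas 2.3.3 were used. Genes to be named were the 8 highest means of each family, those of the *Ugt1* locus, those with an opposite-strand overlap, the 5 closest pairs and the genes of the lists. The remaining enzymes were added, and some list genes are given only in their list's counts. Coding sequences replaced the protein sequences planned for identity, and no protein sequence was used here. Some genes of the lists are not reported here.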

Additional observations from a re-analysis of the deposited data

How the results depend on the processing

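No paired analysis was possible because 1 pooled mean per gene was used, and for the same reason no replicate could be left out. With a minimum mean normalized count of 10 in place of 1, 17 of the 46 genes counted as present, and with 100, 1 did. GSTs held the largest share of the summed level with each alternative tried and SULTs the smallest. Without the 10 genes that overlap the opposite strand the shares were 48.5% for GSTs, 38.4% for UGTs and 13.0% for SULTs. Without the highest gene of each family they were 51.9%, 36.5% and 11.6%. Per kb of exon they were 51.6%, 32.8% and 15.6%, and per kb of unshared exon, added after the values had been seen, 49.9%, 35.0% and 15.1%. The median of 5.16 became 8.42 when genes with a mean under 1 were left out and 6.42 over genes with no opposite-strand overlap. Of the 10 highest genes per kb, 9 were kept when the whole count was divided by the length of unshared exon. Depth per library is unknown, and means below 1 rest on few reads over 32 libraries.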

Other observations

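A processed pseudogene of the mu class, *Gstm2-ps1* on chromosome 5, was left out by its symbol. Its mean normalized count was 3.79, or 5.77 per kb, against 2.16 per kb for *Gstm2*, and it shares 116 of the 75-base windows of *Gstm1*. *Mgst2* and *Mgst3*, further membrane-bound GST genes, stood at 0.120 and 0.607 per kb, and the arylamine acetyltransferase genes *Nat2* and *Nat1* at 1.11 and 0.168. *Nnmt*, which methylates nicotinamide, stood at 9.96 per kb, *Glyat*, which conjugates glycine, at 4.91 and *Tpmt*, with 641 bp of exon opposite another gene, at 1.61. *Gusb*, whose enzyme removes glucuronate, stood at 3.80, and *Bpnt1*, which clears the product of PAPS use, at 2.21. The gut markers *Vil1*, with 49 bp of exon opposite another gene, and *Fabp2*, with none, stood at 0.734 and 5.58 per kb.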
